A study of Rattus norvegicus with 24 samples.

Results

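The genes described here bring iron into brain cells, store it, release it and pass it out again, together with the proteins that sense it. They are Tf, Tfrc, Slc11a2, Fth1, Ftl1, Ncoa4, Slc40a1, Cp, Aco1 and Ireb2, chosen by symbol and not by any measured value, and they make up 10 of the 32883 reference genes that every table lists. All 10 were among the 15644 genes whose level was high enough to test. The RNA came from frontal cortex of 24 adult male Sprague-Dawley rats, taken 24 h after inhalation of a tungsten particle aerosol. By the labels the aerosol held 0 mg/m3 for Control, 5 mg/m3 for the Low group and 80 mg/m3 for the High group, with 8 rats in each group and 1 library per rat. Strain, sex, tissue and time point were common to all groups, and neither the rats' age nor the length of the exposure was stated. The labels' extraction text speaks of cell lines of the frontal cortex, whereas the study's methods speak of tissue.

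Iron reaches cells mostly as transferrin bound to the transferrin receptor, which carries it into an acidic vesicle where the divalent metal transporter passes it to the cytosol. Ferritin, a shell of heavy and light chains, stores what is not used, and a cargo receptor takes ferritin to the lysosome when iron is needed. Ferroportin is the known exporter of iron from mammalian cells, and ceruloplasmin oxidises the iron that leaves. A pair of iron regulatory proteins binds hairpins in the messenger RNAs of several of these genes when iron is scarce, which stabilises the receptor's mRNA and blocks translation of ferritin. In brain, endothelial cells take iron up from blood, and oligodendrocytes are rich in transferrin and ferritin.

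Levels are given as scaled coverage, to put genes and libraries on 1 scale. This is the mean read depth per base of a gene, divided by the library's sum over all reference genes and multiplied by 1000000. In units of 1000000, the sum itself was 1.67 to 2.82 for Control, 1.64 to 3.07 for Low and 1.77 to 2.67 for High. Mitochondrial genes made up 22.1% to 30.0% of it for Control, 21.8% to 33.8% for Low and 22.5% to 27.8% for High. The highest share was that of Low replicate 61. The depth behind a value is unknown, since read counts were not listed. Besides reference genes, the Control and High tables carry between 46334 and 159573 loci that were built from each rat's own reads. Control replicate 56 has the most by far, and the next highest is Control replicate 51 with 66427. The Low tables carry 0. A difference between Low and either other group therefore cannot be told apart from a difference in the kind of table. Markers of cortical neurons were detected in all libraries, with a summed level of 1300 to 2930, and those of striatum were also present at 222 to 1698. In a mixed tissue, fewer cells of a type and less RNA per cell cannot be told apart. Several libraries lay outside the range of the others of their group in several of the 10 iron genes. For any gene with unequal values, 1 of the 8 libraries of a group lies below the others and 1 above. These counts are therefore a description and not a test. Control replicate 49 lay below in 6 genes and above in 1, and Low replicate 57 below in 4 and above in 2. Control replicate 56 lay above in 5 and High replicate 66 above in 7, while High replicate 72 lay below in 5 and High replicate 68 below in 4. Each was left out in turn, and replicates 49 and 57, and likewise 68 and 72, were also left out together, alternatives chosen after seeing the data.

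In Control, Fth1 had the highest level of the 10 genes and Slc40a1 the lowest. The order by median was Fth1, Ftl1, Tf, Tfrc, Aco1, Ncoa4, Slc11a2, Ireb2, Cp and Slc40a1. The Control ranges did not overlap between Fth1 and Ftl1, Tf and Tfrc, Tfrc and Aco1, or Cp and Slc40a1, whereas those of the other neighbours in the order did. Within a library the order was nevertheless nearly fixed. Of the neighbours, only Ftl1 and Tf, in order in 22 of the 24 libraries, and Ireb2 and Cp, in 23, were ever exchanged. Among the 15644 genes tested, Fth1 ranked 44 by mean Control level, and Slc40a1 ranked 13563.

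**Figure D1:**
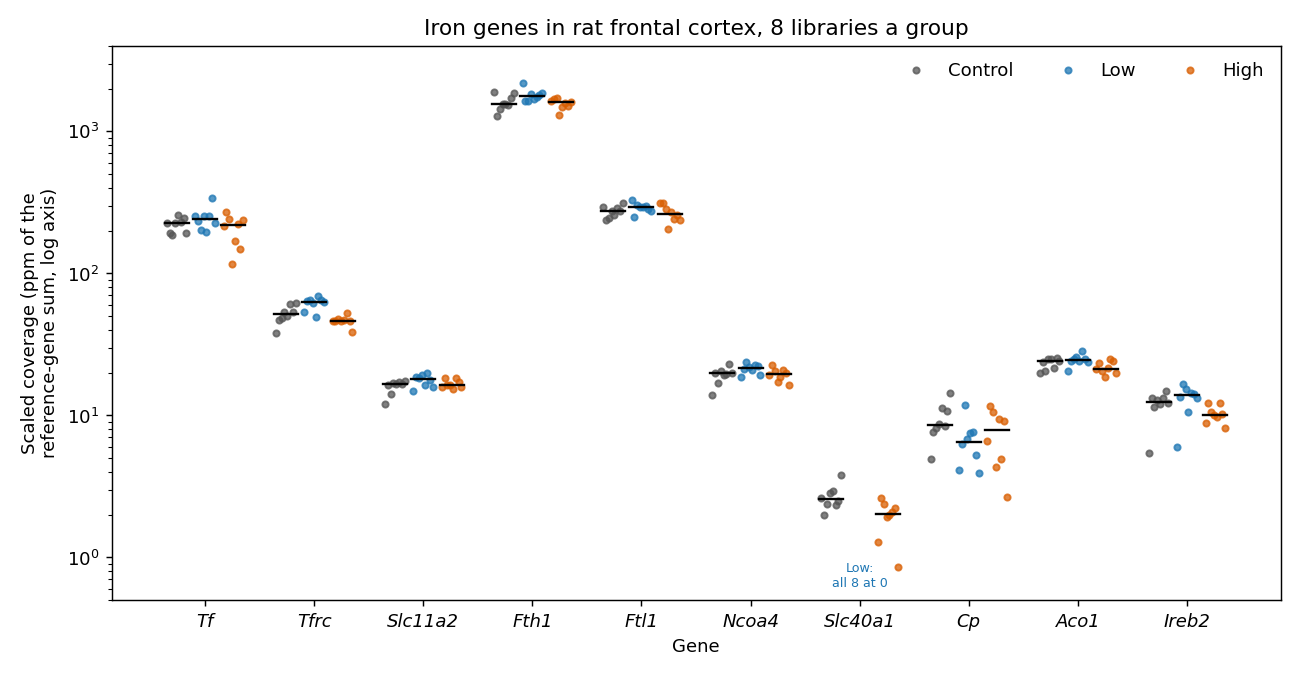
Scaled coverage of the 10 iron genes in each of 24 libraries, on a log axis, with 8 points per group and a bar at the group's median. Fth1 lies between 1285 and 2195 in all libraries, and Slc40a1 is listed at 0 in all 8 Low libraries, which a log axis cannot show.

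Between Low and Control, 1 of the 10 genes, Slc40a1, which is listed at 0 in every Low library, passed the test (limma, adjusted p under 0.05 over all genes tested), where 6.11% of all genes did. At an unadjusted p under 0.05, 3 of the 10 (Fth1, Slc40a1 and Tfrc) stood beside 18.4% of all genes. Between High and Control, 0 of the 10 passed, as did 0 of all genes (0.0%), and at an unadjusted p under 0.05 there was 1 of the 10, Slc40a1, beside 330 of all genes (2.11%). An exact Wilcoxon rank-sum test also gave 0 genes there, with 887 before adjustment. Between Low and High, 2 of the 10, Tfrc and Slc40a1, passed, against 11.7% of all genes, and 5 were at an unadjusted p under 0.05, against 29.1% of all genes. Without Control replicate 49 and Low replicate 57, the genes that passed between Low and High were Aco1, Ireb2, Slc40a1 and Tfrc, in a fit where 28.8% of all genes passed. Without High replicates 68 and 72 they were Slc40a1 and Tfrc, where 9.81% of all genes passed. In the fit without replicates 49 and 57, 390 of all genes passed between High and Control, and none of the 10 was among them. Leaving Slc40a1 aside, the median log2 fold change of the other 9 genes was 0.14 for Low against Control, -0.08 for High against Control and 0.17 for Low against High, beside 0.06, -0.03 and 0.09 over all genes tested. Of these 9 genes, 8 had a positive estimate in Low against Control and 8 in Low against High. The comparisons share samples in pairs, so their estimates are not independent of each other.

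**Figure D2:**
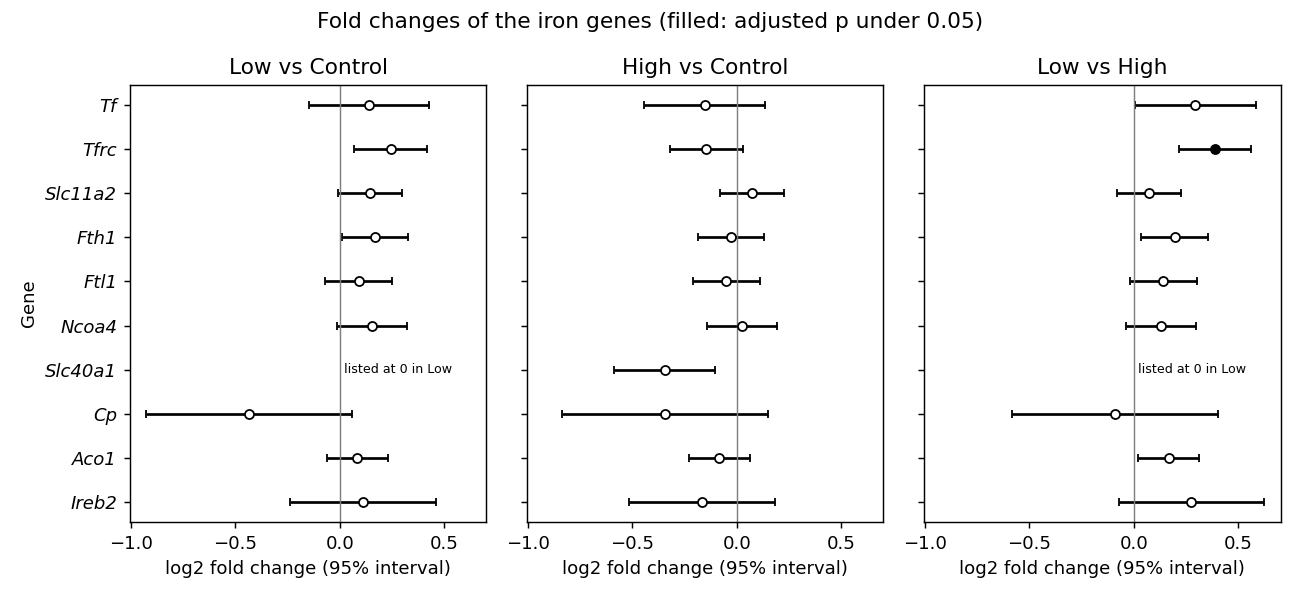
Log2 fold change of each iron gene on the log2(scaled coverage + 1) scale in the 3 comparisons, with its 95% interval from limma (8 libraries a group). The filled point is Tfrc in Low against High at 0.39. No value is drawn for Slc40a1 where Low is listed at 0.

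Tfrc encodes the transferrin receptor, through which cells take up iron-loaded transferrin. It is listed on chromosome 11, minus strand, from 71397383 to 71419223. Its scaled coverage was 38.2 to 61.8 for Control (median 51.8), 49.1 to 69.4 for Low (median 63.2) and 38.9 to 52.4 for High (median 46.4). In 7 of 8 Low libraries it was above every High library, a pattern of at least 7 libraries that 2.83% of all genes tested had, and Low replicate 61 was the exception. Low and Control overlapped more widely, with 5 of 8 Low libraries above every Control library. The mean was 61.2 ± 6.70 in Low and 46.4 ± 3.68 in High (SD, n = 8 each). The log2 fold change of Low against High was 0.39 (standard error 0.084, 95% interval 0.22 to 0.56, limma adjusted p = 0.00315), a fold of 1.31. Against Control it was 0.24 in Low (standard error 0.084, adjusted p = 0.0944) and -0.15 in High (95% interval -0.32 to 0.03, adjusted p = 0.999), so neither dose passed the test against Control. Low against High stayed past the threshold when each library was left out in turn, with estimates of 0.36 to 0.43, and without High replicates 68 and 72 (0.35, adjusted p = 0.0157). It did not pass without scaling (0.18, adjusted p = 0.732) or with libraries 56 to 62 as a covariate (0.35, adjusted p = 0.189). That set was known from earlier results of these data and holds 1 Control library and 6 of the 8 Low libraries. The covariate is therefore hard to separate from the Low group. Low against Control passed without Control replicate 56 (0.28, adjusted p = 0.0365) and without Low replicate 61 (0.29, adjusted p = 0.0382). It also passed without mitochondrial genes in the sum (0.27, adjusted p = 0.022), where 10.8% of all genes did. With median-of-ratios scaling it was 0.19 (adjusted p = 0.0405), where 6.94% of all genes passed. The FPKM and TPM columns gave a pass too, where 89.7% and 25.4% of all genes passed. All 16 Control and High tables also list a locus built from the rat's own reads over Tfrc on its strand (median 32.7). Only in 1 table, Control replicate 56, did its level equal that of the reference row. Such an equal level was found in 1 table for Ireb2, 3 for Slc11a2, 4 for Tf, 11 for Ncoa4, 14 for Cp, 15 for Aco1 and 16 for Fth1 and Ftl1. Its bearing on the Tfrc difference was not tested.

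Capillary cells of the brain are a known site of transferrin receptor, so their markers are given beside Tfrc. Of the 10 endothelial markers, 7 were tested, and 2 of them, Slco1c1 and Slco1a4, were higher in Low than in High, where 5.3% of all genes were called higher. The difference in log2 was 0.30 for Slco1c1 (adjusted p = 0.00963) and 0.33 for Slco1a4 (adjusted p = 0.0235), both transporters of the blood-brain barrier. All 7 had a positive estimate, beside a median of 0.09 over all genes tested. The summed level of the list was 177 to 292 for Control, 213 to 277 for Low and 189 to 227 for High. The defining marker Cldn5 was listed at 0 in 19 of 24 libraries, and Abcb1a and Pecam1 were not matched by symbol. Tfrc divided by the summed markers was 0.189 to 0.299 for Low and 0.196 to 0.278 for High, ranges that overlap. With group means subtracted, Pearson's r between Tfrc and the mean log2 level of the 7 markers was 0.48 over 24 libraries. It did not pass (permutation test within groups, adjusted p = 0.137), and Spearman's rho was 0.20. Without the pair of libraries farthest from the median of the score, Control replicates 49 and 56, r was 0.02. The part of these cells in the Tfrc difference was not tested.

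The 250 bases before the Tfrc start are shown because Tfrc is the only one of the 10 iron genes above 0 in all groups that passed a test. They come from RefSeq (GRCr8, chr11:81690319-81690568, minus strand), whose build is not that of the tables, and are written 5′ to 3′ up to the base before the start. Capitals mark ACGTG, the core that hypoxia-inducible factors bind, and TGACG, the core of the cyclic AMP response element.
Tfrc promoter: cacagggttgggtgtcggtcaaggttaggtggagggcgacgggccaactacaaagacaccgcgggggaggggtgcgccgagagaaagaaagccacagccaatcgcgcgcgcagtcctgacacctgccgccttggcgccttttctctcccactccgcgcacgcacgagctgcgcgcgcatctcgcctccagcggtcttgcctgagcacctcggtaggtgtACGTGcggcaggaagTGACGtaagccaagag
ACGTG begins 31 bases before the start and TGACG 16 bases before it, and the motifs do not overlap. Searched on both strands (CACGT and CGTCA on the other), ACGTG was in 16.6% and TGACG in 18.2% of the 33469 promoter windows of this length. Among the 8 iron genes with an entry, Ncoa4 also holds both motifs, and Ireb2 holds TGACG. A match of letters is a description only.

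**Figure D3:**
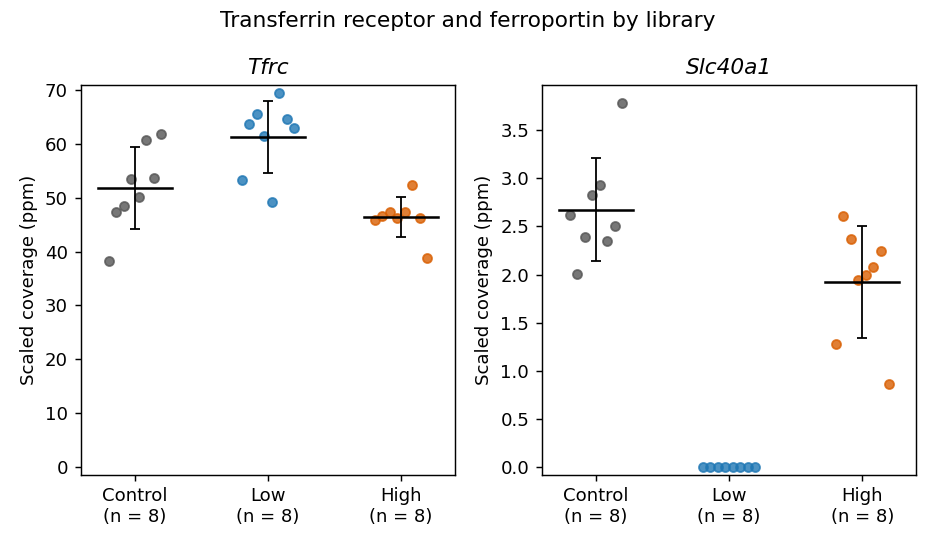
Scaled coverage (ppm, parts per 1000000 of the reference-gene sum) of Tfrc and Slc40a1 in each library, with the mean and SD of 8 libraries per group where values are above 0. For Tfrc, 7 of 8 Low points lie above all High points. For Slc40a1, all 8 Low points lie at 0, while Control lies between 2.002 and 3.78 and High between 0.863 and 2.60.

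Tf encodes transferrin, the carrier protein that the receptor binds. The tables place it on chromosome 8, minus strand, from 111673547 to 111721333. Its scaled coverage was 186 to 257 for Control (median 228), 194 to 339 for Low (median 242) and 117 to 269.7 for High (median 219). The groups overlapped, with Low replicate 63 highest and High replicate 68 lowest. The log2 fold change of Low against High was 0.30 (standard error 0.14, unadjusted p = 0.0446, adjusted p = 0.161), and those against Control were 0.14 in Low (adjusted p = 0.622) and -0.15 in High (adjusted p = 0.999). The spread was widest in High, with a coefficient of variation of 25.7%, beside 18.2% in Low and 11.97% in Control.

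Across libraries Tf moved with the markers of oligodendrocytes, the myelin-forming cells. With group means subtracted, Pearson's r between Tf and the mean log2 level of the 13 oligodendrocyte markers was 0.97 and Spearman's rho was 0.96 over 24 libraries (permutation test within groups, two-sided, p = 1e-05 for each, the smallest the permutations can give; adjusted p = 0.00018 and 0.00054 over 54 pairs of gene and list). Within groups r was 0.93 in Control, 0.94 in Low and 0.99 in High (n = 8 each). It was 0.95 without the pair of libraries farthest from the median of the score, High replicates 66 and 68. Among the genes most like Tf across libraries were Mog (r = 0.97) and Mag (0.97), both myelin genes, of 8629 genes compared. Divided by the summed markers, Tf was 3.51% to 4.40% for Control, 3.59% to 4.27% for Low and 3.57% to 4.18% for High. Tf itself ran from 117 in its lowest library to 339 in its highest. Of the 13 markers, Aspa and Gjb1 passed as lower in Low, with log2 fold changes of -0.57 and -1.06 against Control and -0.46 and -0.98 against High. Of the 15644 genes tested, 764 were called lower against Control and 999 against High. The other 11 markers had positive estimates in both comparisons. As for all differences with Low, the group cannot be told apart from the kind of table. The summed level of the list was 4374 to 6333 for Control, 4736 to 8883 for Low and 2809 to 7068 for High.

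Slc11a2 encodes the divalent metal transporter DMT1, which moves iron from the vesicle into the cytosol. It is listed on chromosome 7, minus strand, from 142025815 to 142063212. Its scaled coverage was 11.99 to 17.5 for Control (median 16.6), 14.8 to 20.03 for Low (median 18.1) and 15.3 to 18.5 for High (median 16.3). Although 5 of 8 Low libraries were above every Control library, the difference did not pass (log2 fold change 0.14, standard error 0.074, adjusted p = 0.302). High differed from Control by 0.07 (95% interval -0.08 to 0.22) and Low from High by 0.07 (95% interval -0.08 to 0.23). The sign of Low against High turned with median-of-ratios scaling (-0.02), without scaling (-0.14) and with libraries 56 to 62 as a covariate (-0.01). Of the uptake genes, Tfrc was thus the single one past the threshold with scaled coverage. With the FPKM and TPM columns, Slc11a2 passed in Low against High (0.84 and 0.48) and in Low against Control (0.96 and 0.62). Tf passed with both columns in Low against High (0.87 and 0.46). With these columns 89.8% and 25.2% of all genes passed between Low and High, and 89.7% and 25.4% between Low and Control.

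Fth1 encodes the ferritin heavy chain, which oxidises iron as it enters the shell. Its row lies on chromosome 1, plus strand, from 226030938 to 226033228. Its scaled coverage was 1285 to 1886 for Control (median 1560.1), 1626 to 2195 for Low (median 1781) and 1303 to 1719 for High (median 1602). All 8 Low libraries were above the Control median and above the High median, and 5 of 8 were above every High library. The log2 fold change was 0.17 for Low against Control (standard error 0.077, unadjusted p = 0.0397, adjusted p = 0.242) and 0.20 for Low against High (unadjusted p = 0.0185, adjusted p = 0.0978). Neither passed. High differed from Control by -0.03 (95% interval -0.19 to 0.13).

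Fth1 overlaps Best1, a chloride channel gene on the opposite strand, and whether counting used strand is not stated, so reads of the overlap cannot be assigned to either gene. Best1 stood at 10.9% to 12.6% of Fth1 for Control, 11.2% to 12.1% for Low and 11.9% to 12.8% for High, and it was the gene most like Fth1 across libraries (r = 0.93). This near-constant share is a measured fact and its source was not tested. In all 16 Control and High tables, an assembled locus on the strand opposite to Fth1 was also listed, with a median scaled coverage of 958.

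The light chain, which aids the formation of the iron core, is covered by a pair of near-identical genes, and reads may be split between them. The row named Ftl1 lies on chromosome 5, plus strand, from 152325871 to 152326778, between Cd52 and Ubxn11. A second row, LOC100360087 (chromosome 1, minus strand, 101448346 to 101449829), lies between Gys1 and Bax. RefSeq (GRCr8) places the name Ftl1 between Gys1 and Bax and LOC100360087 between Cd52 and Ubxn11, so that the names are exchanged between the annotations, and both rows are given. Ftl1 as listed was 239.6 to 312 for Control, 249 to 328 for Low and 204 to 313 for High. LOC100360087 was 318 to 436 for Control, 386 to 489 for Low and 286 to 441 for High. All group ranges overlapped for both rows. Their ratio was 0.637 to 0.839 for Control, 0.646 to 0.727 for Low and 0.685 to 0.774 for High.

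The estimates of the 2 light chain rows pointed the same way, without passing the test. For Ftl1 the log2 fold change was 0.09 for Low against Control (adjusted p = 0.567), -0.05 for High against Control (adjusted p = 0.999) and 0.14 for Low against High (adjusted p = 0.236). For LOC100360087 it was 0.15 (adjusted p = 0.35), -0.06 (adjusted p = 0.999) and 0.21 (adjusted p = 0.0936). Heavy chain divided by both light chain rows was 2.44 ± 0.099 in Control, 2.52 ± 0.18 in Low and 2.50 ± 0.22 in High (SD, n = 8 each), with overlapping ranges. A small gene nested in Ftl1 on the same strand, AC120071.1, was 272 to 400 in Control and 258 to 387 in High but 0.446 to 0.777 in Low, although Ftl1 around it showed no such gap. That gap follows the kind of table and the group alike, which cannot be told apart.

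**Figure D4:**
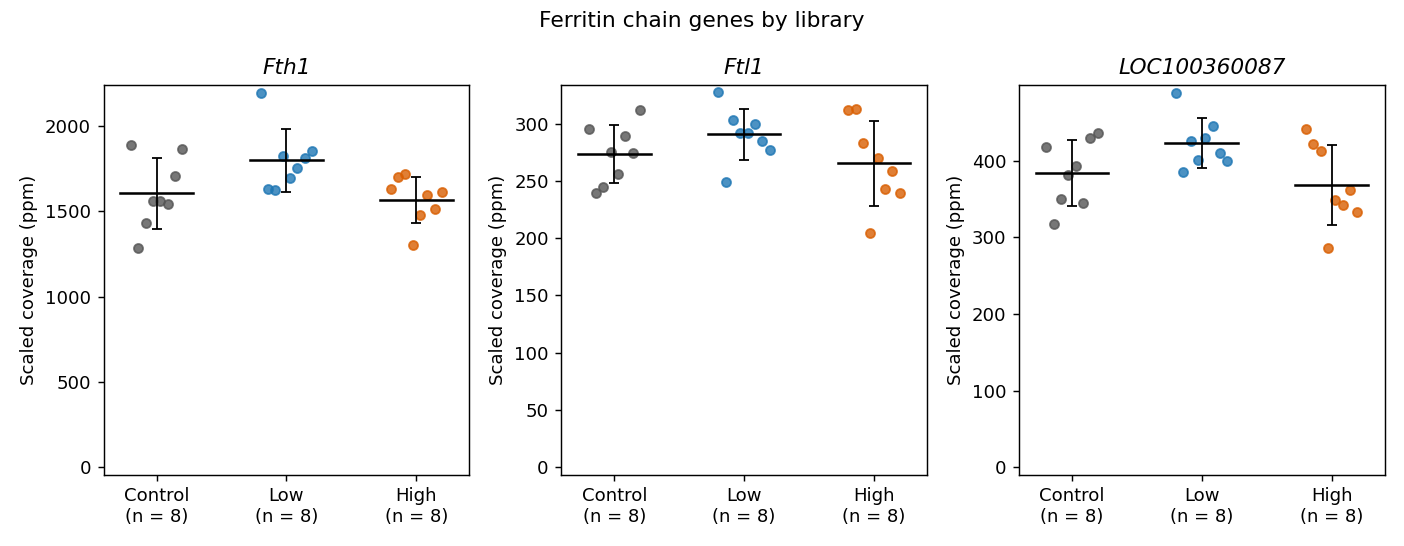
Scaled coverage (ppm, parts per 1000000 of the reference-gene sum) of the ferritin heavy chain gene Fth1 and both light chain rows, Ftl1 and LOC100360087, in each library, with the mean and SD of 8 libraries per group. The groups overlap in all 3 panels, and Low replicate 57 is the highest Low point in each.

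Ncoa4 encodes the receptor that delivers ferritin to lysosomes for breakdown. Its row lies on chromosome 16, plus strand, from 8302950 to 8323293. Its scaled coverage was 14.0 to 22.9 for Control (median 19.8), 18.6 to 23.7 for Low (median 21.7) and 16.3 to 22.6 for High (median 19.6). The groups overlapped throughout. The log2 fold change was 0.16 for Low against Control (adjusted p = 0.306), 0.02 for High against Control (adjusted p = 0.999) and 0.13 for Low against High (adjusted p = 0.283). No gene of storage or release therefore passed in any comparison.

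Slc40a1 encodes ferroportin, the exporter of iron. It is listed on chromosome 9, minus strand, from 52820683 to 52830457. It was low wherever it was detected, with scaled coverage of 2.002 to 3.78 in Control (median 2.56) and 0.863 to 2.60 in High (median 2.04). It was listed at 0 in all 8 Low tables, so no fold change is given. Although it passed the test in both comparisons with Low, a group fixed at 0 has no spread to compare with, so these calls say no more than the listing itself. It was tested because its mean over all 24 libraries was 1.53, above the minimum of 1. Its mean over Low and High alone was 0.961, so it was not tested in the fit of these groups only. Of all genes tested, 36 (0.23%) were likewise at 0 in all Low libraries and above 0 in all others. The zeros are given as listed and are not read as absence of the mRNA.

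A further feature set Slc40a1 apart from the other 9 genes. In none of the 16 Control and High tables did an assembled locus overlap it on its strand, whereas every other iron gene had one in all 16. That lack was shared by 42 of all genes tested (0.268%), of which 10 (23.8%) were at 0 in all Low libraries and above 0 in all others. Between High and Control, whose tables are of 1 kind, Slc40a1 differed by a log2 fold change of -0.35 (standard error 0.12, unadjusted p = 0.00735, adjusted p = 0.999). In 4 of 8 High libraries it was below every Control library, with High replicate 72 lowest, but the difference did not pass the correction.

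The 250 bases before the Slc40a1 start are shown because of this gap between the groups of tables. They are from RefSeq (GRCr8, chr9:55543461-55543710, minus strand), written in the same way. Capitals mark GGGCGG and its reverse CCGCCC, the GC box that Sp1 binds.
Slc40a1 promoter: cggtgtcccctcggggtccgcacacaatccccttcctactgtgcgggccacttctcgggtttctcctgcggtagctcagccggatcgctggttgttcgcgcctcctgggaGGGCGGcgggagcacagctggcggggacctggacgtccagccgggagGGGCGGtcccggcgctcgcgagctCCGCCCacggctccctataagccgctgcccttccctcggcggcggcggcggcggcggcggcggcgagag
The first bases of the 3 matches lie 140, 93 and 69 bases before the start, without overlap. GC boxes were in 30.5% of the 33469 windows, and among the 8 iron genes with an entry also in Aco1, Ireb2, Ncoa4 and Slc11a2. GC content was 74.0% here and 64.8% in the Tfrc window. TATAAA, searched on both strands (TTTATA), was in the windows of Cp, Ncoa4 and Tf and in 12.9% of all, but in neither window printed.

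Cp encodes ceruloplasmin, the copper-bearing oxidase of exported iron, made in brain largely by astrocytes. The tables place it on chromosome 2, plus strand, from 104744461 to 104799853, where its end overlaps Hps3 on the opposite strand. Its scaled coverage was 4.95 to 14.4 for Control (median 8.57), 3.93 to 11.8 for Low (median 6.53) and 2.67 to 11.7 for High (median 7.93). Its coefficient of variation, the largest of the 10 genes in each group, was 30.4% in Control, 37.8% in Low and 43.7% in High. The log2 fold change was -0.44 in Low (95% interval -0.93 to 0.06, adjusted p = 0.339) and -0.35 in High (95% interval -0.84 to 0.15, adjusted p = 0.999) against Control. Between Low and High the estimate was -0.09, and the sign turned without High replicate 66 (0.01) and with the TPM (0.04) and FPKM (0.34) columns.

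Cp moved with the markers of several cell types across libraries. With group means subtracted, r was 0.77 with astrocyte markers, 0.78 with microglia markers and 0.67 with endothelial markers (permutation tests, adjusted p = 0.00018, 0.000675 and 0.00231), and rho was 0.76, 0.77 and 0.67 (adjusted p = 0.00162, 0.00162 and 0.00833). Without the pair of libraries farthest from the median of each score, r was 0.79, 0.74 and 0.58. The relation to the 8 blood markers found was weaker (r = 0.56, adjusted p = 0.0463). It passed in 9 of the 24 fits that leave out 1 library. The genes most like Cp were Slc13a4 (r = 0.95), a sulphate transporter, and a pair of rows both named NEWGENE_621351 (r = 0.95 each).

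Aco1 and Ireb2 encode the iron regulatory proteins, of which the former is also the cytosolic aconitase. Aco1 is listed on chromosome 5, plus strand, from 56425024 to 56481218, and Ireb2 on chromosome 8, plus strand, from 59420123 to 59501118. Aco1 was 19.8 to 25.3 for Control (median 24.1), 20.5 to 28.5 for Low (median 24.7) and 18.6 to 24.96 for High (median 21.4). Ireb2 was 5.48 to 14.9 for Control (median 12.5), 5.96 to 16.7 for Low (median 13.9) and 8.23 to 12.3 for High (median 10.1). The groups overlapped for both genes, and the lowest Ireb2 values of Control and Low were those of replicates 49 and 57. With those aside, Ireb2 was at least 11.4 in Control and at least 10.6 in Low.

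Neither sensor passed in the fit of all 24 libraries. The log2 fold change of Low against High was 0.17 for Aco1 (standard error 0.071, unadjusted p = 0.0262, adjusted p = 0.119) and 0.28 for Ireb2 (standard error 0.17, adjusted p = 0.281). Without Control replicate 49 and Low replicate 57 it was 0.20 for Aco1 (adjusted p = 0.0214) and 0.41 for Ireb2 (adjusted p = 0.0016), and both passed, as did 28.8% of all genes. Leaving out Low replicate 57 alone gave 0.20 (adjusted p = 0.0489) and 0.41 (adjusted p = 0.0474), where 15.0% of all genes passed. Without High replicates 68 and 72 the estimates were 0.11 (adjusted p = 0.344) and 0.23 (adjusted p = 0.47). Against Control, Aco1 differed by 0.08 in Low (adjusted p = 0.553) and -0.08 in High (adjusted p = 0.999), and Ireb2 by 0.11 (adjusted p = 0.763) and -0.17 (adjusted p = 0.999). The sign for Ireb2 in Low against Control turned without Control replicate 49 (-0.03). Ireb2 divided by Aco1 was 0.277 to 0.617 for Control, 0.29 to 0.665 for Low and 0.41 to 0.54 for High.

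Several iron genes moved with the astrocyte score across libraries, most closely Ncoa4 (r = 0.86), Ireb2 (0.83), Slc11a2 (0.79) and Aco1 (0.70). Their adjusted p values by permutation were 0.00018, 0.00283, 0.00216 and 0.00231, and rho was 0.78, 0.57, 0.68 and 0.62 (adjusted p = 0.00135, 0.0221, 0.0054 and 0.018). Replicates 49 and 57 had scores farthest from the median. Without them r fell to 0.77, 0.50, 0.54 and 0.53. For Tfrc r was 0.65 with them (adjusted p = 0.0186, rho = 0.56, adjusted p = 0.0312) and 0.39 without. Ftl1 moved with microglia (r = 0.70, adjusted p = 0.00606, rho = 0.70, adjusted p = 0.00833), and r was 0.67 without the pair of libraries farthest in that score. In all, 14 of 54 pairs of gene and list passed with r. The share of all genes tested that would pass was not computed, so this count is not read as particular to iron genes. Markers of cortical neurons and of striatum were not among the lists correlated, so the values with the astrocyte score do not single out astrocytes. Some of the pairs that passed depended on single libraries. Of the 24 fits that leave out 1 library, Slc11a2 with endothelial markers passed in 13. Fth1 with oligodendrocyte markers passed in 7 of them, and Ncoa4 with microglia markers in 6. The summed astrocyte level was 833 to 1868 for Control, 960 to 1743 for Low and 952 to 1526 for High, and none of the 9 astrocyte markers or the 9 microglia markers tested passed in any comparison.

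**Figure D5:**
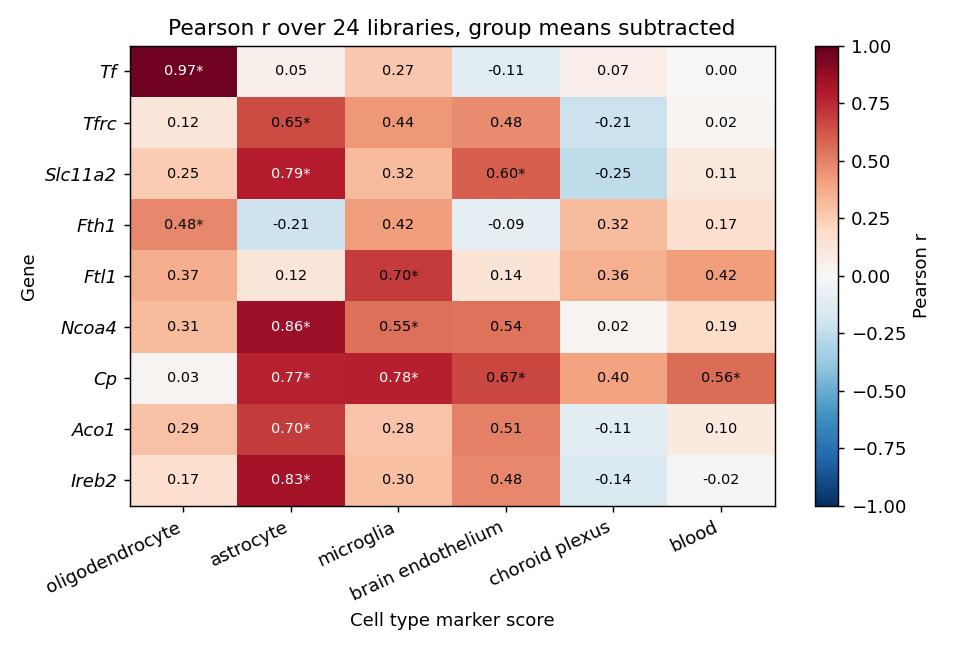
Pearson's r between each of 9 iron genes and the mean log2 level of 6 marker lists over 24 libraries, with group means subtracted; an asterisk marks an adjusted p under 0.05 by permutation within groups. The darkest cell is Tf with oligodendrocyte markers at 0.97.

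The genes whose pattern across the 24 libraries was most like each iron gene, with group means subtracted, are given as a description. They were Dcaf5, Cmtr1 and Mycbp2 for Tfrc (r = 0.87 each), Scrn1, Igf2r and Phlpp1 for Slc11a2 (0.95, 0.93 and 0.93), and Ddx5, Rybp and Txnrd1 for Ncoa4 (0.96, 0.95 and 0.94). After Best1, Ccdc107 (0.85) and Rpl19 (0.84) were next for Fth1, and Rpl14 (0.89), Jmjd8 (0.86) and Echs1 (0.86) were closest to Ftl1. Rpl19 and Rpl14 are ribosomal protein genes. For Ireb2 they were Xpr1, Impad1 and Elavl1 (0.97 each), and for Aco1 Zfp354c, Ltn1 and Dcp1a (0.87, 0.86 and 0.86). Slc40a1 had no close match, with 0.73 for Cyp4f6, 0.72 for Apcdd1 and 0.72 for NEWGENE_1308171, and its 8 Low values of 0 add nothing to that r. Among the iron genes themselves, the closest pairs were Slc11a2 with Ncoa4 and Slc11a2 with Ireb2 (0.84 each), and the heavy and light ferritin chains had 0.72. All points share the library, its depth and its scaling.

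The wider iron pathway was read from 5 lists chosen from general knowledge, with 58 genes tested in all. Between Low and Control 0 of them passed, against 6.11% of all genes, and 8 were at an unadjusted p under 0.05, against 18.4%. Between High and Control 0 passed, and 1 was at an unadjusted p under 0.05, against 2.11%. Between Low and High 2 passed, both higher in Low, where 5.3% of all genes were called higher, and 11 were at an unadjusted p under 0.05, against 29.1%. These were Alad, a haem synthesis enzyme, and Prnp, the prion protein gene, which has been tied to iron reduction. Alad was 14.4 to 18.0 for Low and 10.7 to 14.1 for High, so the groups did not overlap, with a log2 fold change of 0.28 (adjusted p = 0.013). Every Low library was above every High library for 0.262% of all genes tested. Prnp was 702 to 915 for Low and 652 to 772 for High, with a log2 fold change of 0.18 (adjusted p = 0.0495).

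By list, the median log2 fold change of Low against High was 0.10 for other transport and redox genes (11 tested, 9 positive), -0.03 for systemic regulation (5 tested, 2 positive), 0.11 for cytosolic chaperones and sensor turnover (10 tested, 8 positive), 0.19 for haem breakdown and export (11 tested, 10 positive) and 0.04 for mitochondrial iron and haem synthesis (21 tested, 15 positive). Over all genes it was 0.09. In the lists of chaperones and of haem breakdown none passed. Among the chaperones, the genes with the smallest p were Nubp1, an iron-sulphur scaffold (0.41, adjusted p = 0.0531), and Herc2, a ubiquitin ligase (0.42, adjusted p = 0.0576). In haem breakdown they were Hmox2, the constitutive haem oxygenase (0.22, adjusted p = 0.0644), and the haem and folate transporter Slc46a1 (0.30, adjusted p = 0.0856). In systemic regulation, Bmp6 was at -0.46 in Low against Control (adjusted p = 0.255) and Hfe at -0.19 (adjusted p = 0.478).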

How the data were processed

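Frontal cortex RNA of 24 rats was sequenced with a stranded kit. The submitters' processing notes name FastQC, Trimmomatic, TopHat2, StringTie and mRatBN7.2, without versions. The build is not settled: the tables' chromosome 1 reaches 282724300 and their clone names belong to an older assembly, so positions are those of the tables. The authors deposited 1 table per rat with a coverage signal (mean depth per base), FPKM, and a TPM column. In units of 1000000, the deposited TPM sums to 1.0 per Low library, whereas the same deposited column reaches 1.70 to 1.98 per Control or High library and was handled as a score.

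Coverage of rows with a reference identifier was summed per gene, divided by the library's sum over reference genes and multiplied by 1000000. Where the mean over libraries reached 1, genes were fitted with limma 3.58.1 (trend, robust; R 4.3.3) on log2(value + 1), a scale that understates changes of low genes, with 3 groups in 1 fit, two-sided, Benjamini-Hochberg adjusted p under 0.05 over all genes. Nothing says whether rats were processed separately, so p-values cover the spread between libraries. Correlations used 100000 permutations within groups. The tests were also run on simulated data, for limma with values drawn independently for each gene. Such values lack the shared patterns and outlying libraries of these data, so they do not show how the tests behave here. Tables and permutations ran in Python 3.11.15 with pandas 2.3.3, numpy 2.4.6 and scipy 1.17.1, and plots in matplotlib 3.10.9. Promoter windows matched 8 of 10 genes by symbol; protein sequences were not used here.

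The genes, lists, rule for named genes and alternatives were chosen with earlier results of these data known. Named genes are the 10 iron genes; of each other iron list, up to 4 past the threshold or else the 2 with the smallest unadjusted p; and for each iron gene the 3 genes with a symbol and mean of at least 10 that correlate best with it. Of the genes this rule names, 1 is not reported here. Marker genes and overlapping genes are named beyond the rule where a result touches them.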

Additional observations from a re-analysis of the deposited data

Results flagged for a closer look

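In 4 of the 32 sets of 8 libraries, 1 value lay far from the others by Dixon's criterion, where chance gives about 1.6 for independent sets. The sets share libraries and are not independent, so 4 beside 1.6 is no test of chance. Tf in Low replicate 63 was 338.9, with the other Low libraries at 194 to 256. Fth1 in Low replicate 57 was 2195, with the others at 1626 to 1851. Cp in Low replicate 59 was 11.8, with the others at 3.93 to 7.60. Ireb2 in Control replicate 49 was 5.48, with the others at 11.4 to 14.9.

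Among the 10 iron genes and the 58 of the wider lists, 3 genes above 0 in all groups differed by the test of Low against High. Of all genes tested, 11.7% did. For each of the 3 genes the dose cannot be told apart from the kind of table. The difference in log2 was 0.39 for Tfrc (limma adjusted p = 0.00315), 0.28 for Alad (adjusted p = 0.013) and 0.18 for Prnp (adjusted p = 0.0495). Slc40a1 was listed at 0 in Low and had a mean of 1.92 in High, which is given as listed and not as a difference between doses.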

How the results depend on the processing

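No paired analysis was possible because the labels give the groups no shared replicate numbers. Slc40a1, fixed at 0 in Low, passed between Low and Control under all alternatives that tested it, and was not tested with a minimum mean of 5 or the FPKM column. Tfrc passed between Low and High under all alternatives except no scaling (0.18) and libraries 56 to 62 as a covariate (0.35). Less the median over all genes, its log2 fold change in Low against High was 0.28 to 0.37 over all 38 fits, those that leave out a library included. The FPKM column moved the median over all genes to 0.53 for Low against Control and 0.52 for Low against High, the TPM column to 0.17 and 0.15, and no scaling to 0.03 and -0.12. Of the iron genes, 8 of the 9 tested passed with FPKM in both comparisons, where 89.7% and 89.8% of all genes did, and 5 and 6 of 10 with TPM, where 25.4% and 25.2% did. Relative to the median, Tfrc stood at 0.31 with FPKM and 0.28 with TPM in Low against High. In Low against Control, Slc11a2 stood at 0.43 with FPKM and 0.45 with TPM, where Tfrc stood at 0.16 to 0.23 over all 38 fits.

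Between Low and Control, the count of genes that passed was 556 with a minimum mean of 5, 1759 without mitochondrial genes in the sum, 12393 with FPKM, 3952 with TPM, 361 with libraries 56 to 62 as a covariate, 535 with only the groups compared and 372 with the exact Wilcoxon test. Iron genes among them were 0 with a minimum mean of 5 and 2, with Tfrc added, under median-of-ratios scaling (6.94% of all genes) or without mitochondrial genes (10.8%). Between Low and High the count was 1192 with a minimum mean of 5, 12410 with FPKM, 3927 with TPM, 354 with the covariate, 1147 with the Wilcoxon test and 4514 without libraries 49 and 57. Iron genes among them were 1 with a minimum mean of 5, no scaling, the covariate or only the groups compared, and 4 without libraries 49 and 57 (28.8% of all genes). Between High and Control, 390 genes passed without libraries 49 and 57. Higher and lower genes numbered 829 and 999 between Low and High, but 370 and 1286 under median-of-ratios scaling and 108 and 1262 without scaling. They were 192 and 764 between Low and Control, but 858 and 901 without mitochondrial genes. The causes were not tested.

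With 1 library left out, 676 to 1224 genes passed between Low and Control, 1266 to 2676 between Low and High and 0 between High and Control. Iron genes past the threshold were 1 to 2, 2 to 4 and 0. Pairs of gene and marker list past it were 9 (without High replicate 72) to 17.

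The signs that turned were of estimates that did not pass the test before or after. Without scaling, High against Control became 0.095 for Aco1, 0.16 for Fth1, 0.13 for Ftl1, 0.0064 for Ireb2, 0.0284 for Tf and 0.0351 for Tfrc. In Low against High it became -0.0430 for Aco1, -0.0232 for Fth1, -0.0781 for Ftl1, -0.0783 for Ncoa4 and -0.14 for Slc11a2. For Slc11a2 in Low against High it was -0.018 under median-of-ratios scaling and -0.00867 with the covariate. With FPKM, Cp became 0.10 in Low against Control, from -0.44, and 0.34 in Low against High, and with TPM 0.0444 in the latter. High against Control for Fth1 became 0.0100 under median-of-ratios scaling, 0.0224 with FPKM, 0.0225 with TPM 0.00763 without libraries 49 and 57 and 0.00914 without libraries 68 and 72, for Ftl1 0.0335 without libraries 68 and 72, and for Ireb2 0.0164 with FPKM and 0.0175 with TPM. Ncoa4 in High against Control became -0.0353 without libraries 49 and 57. With 1 library left out, signs turned for Cp in Low against High (-0.24 to 0.0104), for Fth1 (-0.0714 to 0.0103), Ftl1 (-0.0854 to 0.00193) and Ncoa4 (-0.0353 to 0.0613) in High against Control, and for Ireb2 in Low against Control (-0.0255 to 0.25).

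Slc40a1 is near the lower limit of what was tested, at a mean of 2.67 in Control, and the unknown number of reads limits what can be said of it. The kind of table cannot be told apart from the Low group.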
